A study of Mus musculus with 4 samples.

Results

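The 3 TET genes, Tet1, Tet2 and Tet3, and the DNA glycosylase gene Tdg were followed in mouse embryonic stem (ES) cells depleted of Tex10. The genes were taken by name from the expression tables, in which each has a single row, and they make up 4 of 22739 named genes. RNA had been sequenced from the ES cell line CCE of strain 129SV, kept undifferentiated on gelatin with serum and leukemia inhibitory factor. In the shTex10 group Tex10 was depleted with a short hairpin RNA, and in the shLuci group, the control, the hairpin was aimed at luciferase, a firefly gene absent from mouse. Each group had 2 libraries, called biological replicates in the series design. Nothing is said of separate cultures, and the p-values below reflect only how far these libraries spread, which may be technical. A single hairpin against Tex10 is labelled, without its sequence, and other effects of that hairpin cannot be told apart from loss of Tex10.

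TET enzymes remove DNA methylation in steps. They use iron, oxygen and alpha-ketoglutarate (2-oxoglutarate) to oxidize 5-methylcytosine to 5-hydroxymethylcytosine and then to 5-formylcytosine and 5-carboxylcytosine. TDG, the thymine DNA glycosylase, cuts the last 2 of these bases out of DNA, and base excision repair fills the gap with unmodified cytosine. In mouse ES cells Tet1 and Tet2 are the TET genes known to be active, whereas Tet3 is best known from the oocyte, the zygote and neural cells. The series title links Tex10 to the epigenetic control of super-enhancers, and enhancers are sites where 5-hydroxymethylcytosine is found.

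A start region is shown for each of the 4 genes, of which 3 were called lower in shTex10 and the other was not. Each sequence holds the 250 bases before the transcription start that RefSeq gives on build GRCm38.p6, read 5′ to 3′ on the gene's own strand. Only that start is shown for each gene, and which starts these cells used was not measured. Capitals mark matches, on either strand, to 6 motifs: the OCT4 octamer ATGCAAAT, the E-box CACGTG, the cAMP response element TGACGTCA, the CCAAT box CCAAT, the GC box GGGCGG and the TATA box TATAAA. The windows lie at chr10:62887325-62887574 (minus strand) for Tet1, chr3:133544391-133544640 (minus) for Tet2, chr6:83441679-83441928 (minus) for Tet3 and chr10:82629588-82629837 (plus) for Tdg.
Tet1: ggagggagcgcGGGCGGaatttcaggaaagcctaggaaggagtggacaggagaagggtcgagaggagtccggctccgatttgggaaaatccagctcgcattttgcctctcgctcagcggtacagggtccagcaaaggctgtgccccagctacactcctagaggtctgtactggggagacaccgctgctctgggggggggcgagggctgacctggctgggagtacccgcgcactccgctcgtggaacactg
Tet2: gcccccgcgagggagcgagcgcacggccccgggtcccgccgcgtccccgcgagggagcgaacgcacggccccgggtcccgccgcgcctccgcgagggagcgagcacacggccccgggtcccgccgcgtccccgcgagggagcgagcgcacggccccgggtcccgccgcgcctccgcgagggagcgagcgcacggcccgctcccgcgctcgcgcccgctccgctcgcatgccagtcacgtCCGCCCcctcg
Tet3: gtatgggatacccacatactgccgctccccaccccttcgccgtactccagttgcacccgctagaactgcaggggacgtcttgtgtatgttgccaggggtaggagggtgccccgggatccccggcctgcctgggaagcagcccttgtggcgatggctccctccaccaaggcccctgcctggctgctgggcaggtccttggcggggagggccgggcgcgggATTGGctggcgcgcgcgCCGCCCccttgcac
Tdg: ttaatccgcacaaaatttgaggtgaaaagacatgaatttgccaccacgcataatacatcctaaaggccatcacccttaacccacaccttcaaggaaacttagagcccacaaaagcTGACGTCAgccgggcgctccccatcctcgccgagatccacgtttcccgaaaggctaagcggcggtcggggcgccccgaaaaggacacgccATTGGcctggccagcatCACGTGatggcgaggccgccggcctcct

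All 4 windows held more CpG, the dinucleotide in which cytosine is methylated, than the median window, which held 6. The Tet2 window held 51 CpG, more than 99.9% of the 32851 windows in the RefSeq table. The Tdg window held 19, more than 80.3%, the Tet3 window 17, more than 76.5%, and the Tet1 window 15, more than 72.7%. The Tet2 window is built of a repeated stretch. Of its bases with a partner 42 positions further on in the window, 77.9% were identical to that partner, the highest share of the shifts tried. A GC box, present in 32.7% of all windows, lay in the Tet1, Tet2 and Tet3 windows, and a CCAAT box, present in 33.8%, in the Tet3 and Tdg windows. The Tdg window also held a cAMP response element, found in 1.55% of all windows, and an E-box, found in 6.02%. The OCT4 octamer, found in 1.60% of all windows, and the TATA box, found in 12.4%, matched in none of the 4. The matches describe letters in these windows, and binding was not measured.

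The knockdown itself was read first. Tex10 stood at 11.6 and 13.4 FPKM in the shTex10 libraries, against 77.3 and 82.1 FPKM in the shLuci libraries. FPKM are fragment counts scaled to transcript length and to the mapped fragments of the library, so levels can be compared between genes. Between 11533 and 12003 named genes reached 1 FPKM in each library. The read totals are not known. The value of a single read in rows without a gene name put the depth, roughly, at 82.9% and 91.4% of that of shLuci replicate 1 in the shTex10 libraries and at 94.0% in shLuci replicate 2. Of 11883 genes tested with limma, 31.8% were lower in shTex10, 19.8% higher and 51.6% called in either direction, at a Benjamini-Hochberg adjusted p under 0.05. All log2 changes below subtract the shLuci mean from the shTex10 mean of log2(FPKM + 1), a scale that understates the change of low genes. The median log2 change of all genes tested was -0.14.

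The culture had the markers of ES cells in both groups. All 8 listed ES cell genes were tested, among them Pou5f1, Nanog, Zfp42 and Tdgf1, and their summed level was 1836 and 1746 FPKM in shTex10, against 2870 and 2713 FPKM in shLuci. Of these genes 6 were lower in shTex10, 0 higher and 2, Sox2 and Sall4, not past the test. The count of lower ES cell genes was 3 under quantile normalization, 8 with a replicate block and 0 with the same sum over all rows (limma, also 0 at an unadjusted p under 0.05). Of 14 listed markers of fibroblasts, primitive endoderm, trophectoderm, mesoderm and neural cells, 6 reached the filter of 1 FPKM, and the test called 2 of them higher and 2 lower. The summed level of all 14 was 55.5 and 44.9 FPKM in shTex10, against 49.0 and 40.6 FPKM in shLuci, and no marker of the list was at 0 in all libraries. Among the neural markers Pax6 stood at 0.673 ± 0.0528 FPKM in shTex10 and 6.18 ± 0.543 FPKM in shLuci, and passed the filter only through shLuci. The trophectoderm marker Gata3 stood at 6.98 ± 1.08 FPKM in shTex10 and 2.01 ± 0.199 FPKM in shLuci (SD, n = 2 each). The part of these cell markers in the results below was not tested, and in bulk RNA fewer cells of a type and less RNA per cell cannot be told apart.

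Tet1, Tet2 and Tdg were lower in shTex10, and Tet3 was not called. The fall brought Tet1 and Tet2 to nearly the same share of their shLuci level, 53.0% and 53.1%, and Tdg to 65.2%. Of the 4 genes 3 were thus called lower, where 31.8% of all genes tested were, and in the same 3 both shTex10 libraries lay below both shLuci libraries, as in 48.1% of all genes tested. Both shTex10 libraries lay above in 28.3% of all genes, so the groups did not overlap in 76.4%.

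Tet1 encodes the most abundant TET enzyme of ES cells and carries a CXXC domain that binds CpG-rich DNA. Its row (XLOC_002514) spans mm9 chromosome 10, 62267206 to 62355598. It measured 32.0 and 31.3 FPKM in the shTex10 libraries, against 58.5 and 60.9 FPKM in the shLuci libraries. Both shTex10 libraries lay below both shLuci libraries, and the gap was many times the distance between replicates. The mean was 31.7 ± 0.457 FPKM in shTex10 and 59.7 ± 1.74 FPKM in shLuci (SD, n = 2 each). The log2 change of -0.89 had an SE of 0.08 and a 95% interval from -1.10 to -0.69 (Benjamini-Hochberg adjusted p = 0.000886, limma). Of all genes tested, 4.39% had a lower log2 change than Tet1. An unnamed row that starts just past the Tet1 row, at 62355686, measured 1.04 and 0.717 FPKM in shTex10, against 1.11 and 1.62 FPKM in shLuci.

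Tet2 encodes a TET enzyme without a CXXC domain of its own. Its row (XLOC_017888) spans mm9 chromosome 3, 133126494 to 133207409. Tet2 measured 13.9 and 14.1 FPKM in the shTex10 libraries, against 26.3 and 26.5 FPKM in the shLuci libraries. The replicates of either group were almost equal and the groups lay apart. The mean was 14.0 ± 0.121 FPKM in shTex10 and 26.4 ± 0.193 FPKM in shLuci (SD, n = 2 each). The log2 change of -0.87 had an SE of 0.08 and a 95% interval from -1.08 to -0.66 (Benjamini-Hochberg adjusted p = 0.000961, limma). A lower log2 change than that of Tet2 was found for 4.81% of the genes tested.

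Tet3, the TET gene of the oocyte and zygote, was expressed at a low level. Its row (XLOC_022857) has the locus mm9 chromosome 6, 83312367 to 83405580. The row of B230319C09Rik has the same locus, so the locus may be wider than Tet3 itself. B230319C09Rik stayed at or below 0.0795 FPKM in every library. Tet3 measured 2.44 and 2.02 FPKM in the shTex10 libraries, against 2.38 and 1.89 FPKM in the shLuci libraries. The values of the groups overlapped, and the distance within either group exceeded the distance between the group means. The mean was 2.23 ± 0.294 FPKM in shTex10 and 2.13 ± 0.345 FPKM in shLuci (SD, n = 2 each). The log2 change was 0.05 with an SE of 0.12 (Benjamini-Hochberg adjusted p = 0.773, limma). The 95% interval of the log2 change ran from -0.26 to 0.35, so changes of that size in either direction are not excluded. The sign of the Tet3 change was not stable: it was negative under quantile normalization (-0.11), without shLuci replicate 2 (-0.07) and without shTex10 replicate 1 (-0.05).

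Tdg encodes the glycosylase that acts after the TET enzymes. Its row (XLOC_002106) has the locus mm9 chromosome 10, 82092582 to 82153395. The row of Glt8d2 has the same locus, so the locus may be wider than Tdg itself. Tdg measured 38.1 and 39.0 FPKM in the shTex10 libraries, against 58.7 and 59.5 FPKM in the shLuci libraries. The groups lay apart, with replicates within about 1 FPKM of each other. The mean was 38.5 ± 0.676 FPKM in shTex10 and 59.1 ± 0.539 FPKM in shLuci (SD, n = 2 each). The log2 change of -0.60 had an SE of 0.08 and a 95% interval from -0.81 to -0.40 (Benjamini-Hochberg adjusted p = 0.00277, limma). Of the genes tested, 13.2% had a lower log2 change than Tdg.

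The value of Tdg is less certain than those of the TET genes, because copies of its sequence lie elsewhere in the genome. Of the 3403 stretches of 100 bases, the read length, in its longest coding transcript in GENCODE M21, 38.1% occur unchanged in at least 1 of 4 processed pseudogenes. Tdg-ps on chromosome 15 holds 28.6% of them, Gm9855 on chromosome 10 holds 19.7%, Gm5597 on chromosome 7 holds 17.5% and AC122846.1 on chromosome 19 holds 2.12%. Over its longest alignment Tdg-ps is 98.7% identical to Tdg (2968 bases), and Gm9855 is 99.2% identical (1194 bases). A further neighbour, Glt8d2, lies on the opposite strand, shares 7.88% of the stretches and has a row at the same locus, which measured 0.146 and 0.227 FPKM in shTex10, against 0.172 and 0.325 FPKM in shLuci. How reads that fit several places were assigned is not given in the sources used here. For Tet1, Tet2 and Tet3, 0 such stretches occur in transcripts of another gene. The rows give 1 value per gene, while GENCODE M21 lists 10 transcripts for Tet1, 10 for Tet2, 5 for Tet3 and 11 for Tdg, so a shift between isoforms would not be seen.

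**Figure D1:**
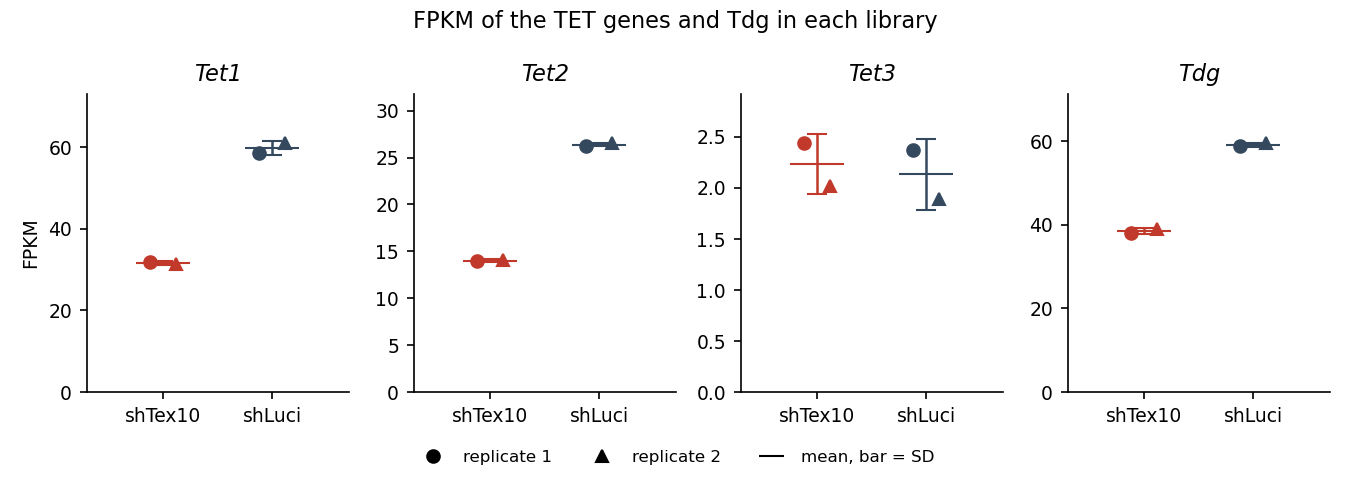
FPKM (vertical axes, each from 0) of Tet1, Tet2, Tet3 and Tdg in the 2 shTex10 libraries (red, left) and the 2 shLuci libraries (blue-grey, right), with circles for replicate 1, triangles for replicate 2, a long dash for the mean and bars for the SD. Tet1, Tet2 and Tdg lie well apart between the groups, whereas the Tet3 values, between 1.89 and 2.44 FPKM, overlap.

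The calls of the 3 fallen genes depended on 1 of the settings tried. When each library was rescaled to the same sum over all rows, named or not, the log2 changes stayed at -0.89 for Tet1, -0.86 for Tet2 and -0.60 for Tdg, but their SE grew to 0.44 each and the calls ended (limma, Benjamini-Hochberg adjusted p = 0.277, 0.306 and 0.582). The sum over all rows was 1403760 FPKM in shLuci replicate 1, against 2224870 FPKM in shLuci replicate 2, and rows without a gene name took 56.3% and 71.6% of it. With the same sum over named genes in each library, the log2 change was -0.67 for Tet1, -0.65 for Tet2 and -0.38 for Tdg, and all 3 remained called. That scaling moved the median log2 change of all genes to 0.06. Relative to the median of all genes, Tet1 stayed between -0.89 and -0.62, Tet2 between -0.86 and -0.67 and Tdg between -0.60 and -0.31 over all 16 alternatives.

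**Figure D2:**
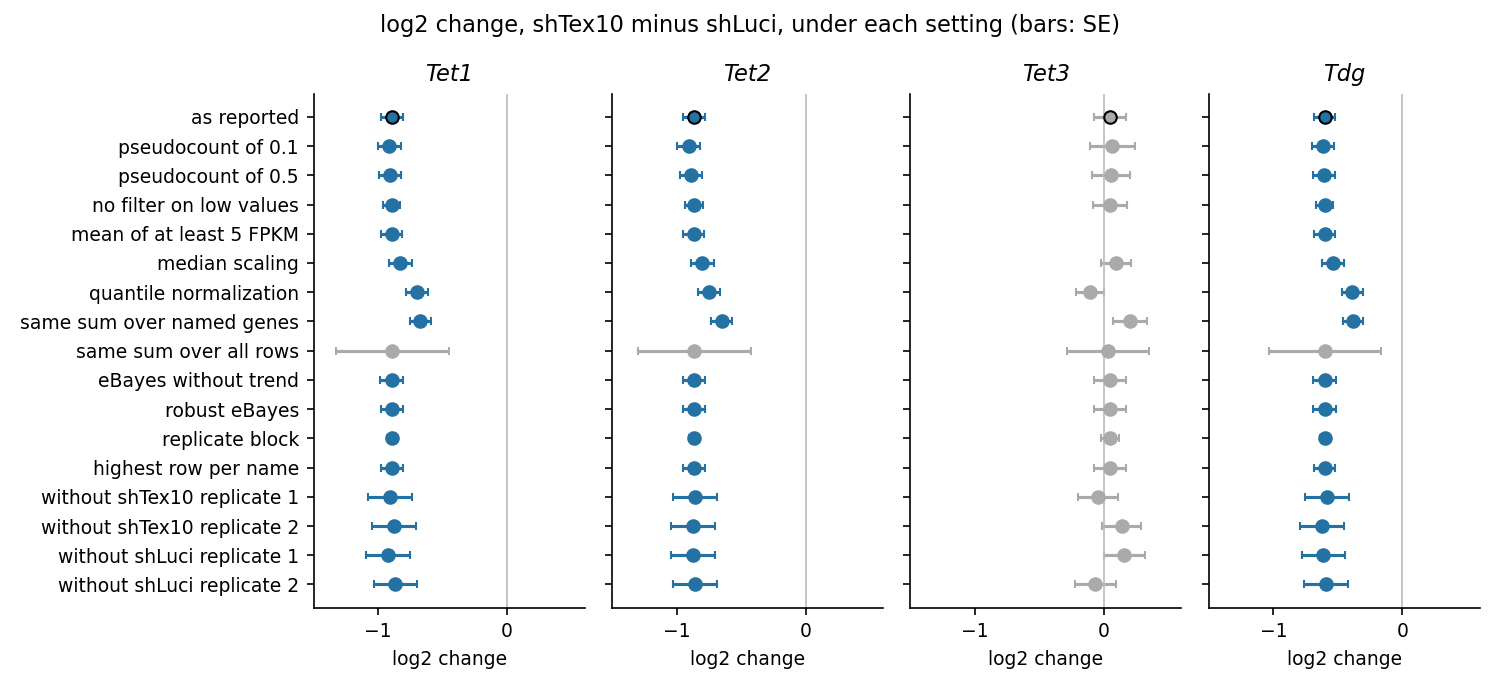
The log2 change of each gene, shTex10 minus shLuci (horizontal axes), under the reported setting (black outline) and each alternative (rows), with bars for the SE, blue for lower in shTex10 past the adjusted p of 0.05 and grey for not past it. Tet1, Tet2 and Tdg stay below 0 in every row and turn grey with the same sum over all rows, and Tet3 lies near 0 throughout and is absent where the filter was a mean of 5 FPKM.

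The TET family was dominated by Tet1 in both groups. Summed over the 3 genes, TET transcripts measured 48.4 and 47.5 FPKM in shTex10, against 87.1 and 89.4 FPKM in shLuci, so that 54.3% of the mean level remained. Tet1 made up 66.1% and 66.0% of this sum in shTex10, against 67.1% and 68.2% in shLuci. Tet2 made up 28.8% and 29.7% in shTex10, against 30.1% and 29.7% in shLuci. The share of Tet3 was 5.04% and 4.26% in shTex10, against 2.73% and 2.11% in shLuci. The order Tet1, Tet2, Tet3 was the same in all 4 libraries and its steps exceeded the spread between replicates. Among all tested genes, 77.2% had a lower mean than Tet1 in shTex10, against 86.3% in shLuci, and 56.7% had a lower mean than Tet2 in shTex10, against 70.8% in shLuci.

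**Figure D3:**
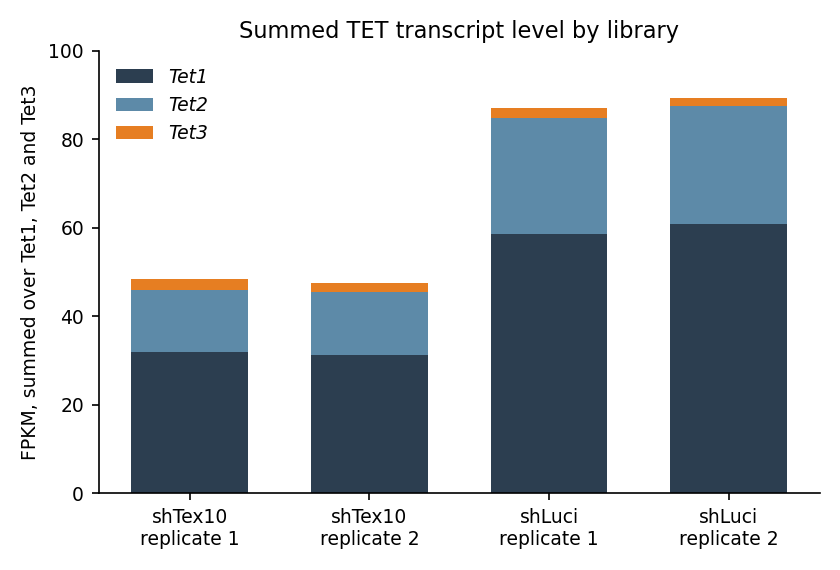
Stacked FPKM of Tet1, Tet2 and Tet3 (vertical axis, from 0) in each of the 4 libraries, shTex10 left and shLuci right, without error bars since each column is 1 library. The shTex10 columns reach 48.4 and 47.5 FPKM and the shLuci columns 87.1 and 89.4 FPKM, while the thin Tet3 segment is of similar height in all.

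Ratios within a library show how evenly the genes changed, and a ratio of FPKM does not move with the scaling of the library. The FPKM of Tet1 over that of Tet2 was 2.29 and 2.22 in shTex10, against 2.23 and 2.30 in shLuci, and these values overlapped. The log2 ratio of Tet1 to Tet2, with 1 FPKM added to each, differed by -0.03 between the groups (exact two-sided permutation test, p = 0.667). The log2 ratio of Tet1 to Tet3 was 3.26 and 3.42 in shTex10, against 4.14 and 4.42 in shLuci, a difference of -0.94. That of Tet2 to Tet3 was 2.12 and 2.32 in shTex10, against 3.01 and 3.25 in shLuci, a difference of -0.91. In both of these ratios the libraries of the groups lay apart. Tdg, which stood level with Tet1 in shLuci, lay above it in shTex10: the log2 ratio of Tdg to Tet1 was 0.24 and 0.31 in shTex10, against 0.01 and -0.03 in shLuci, a difference of 0.29. With 2 libraries against 2 the exact test cannot go below p = 0.333, which each of the last 3 ratios and the Tet1 share reached (0.417 after Benjamini-Hochberg adjustment over the 5 tests). The design therefore cannot show by this test that any pair of the genes changed by different amounts.

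Base excision repair, which completes the removal of bases cut out by TDG, was lower in most of its listed genes under the reported setting. Of 21 genes tested, 12 were lower, 1 higher and 8 not past the test, where 31.8% of all genes tested were lower and 19.8% higher. The median log2 change was -0.41, beside -0.14 for all genes tested. Pcna, the sliding clamp of DNA synthesis, had the smallest p of the list, at 251 ± 20.8 FPKM in shTex10 and 506 ± 10.3 FPKM in shLuci (SD, n = 2 each here and below; log2 change -1.01, SE 0.10). Parp1, which senses DNA breaks, measured 101 ± 4.11 FPKM in shTex10 and 184 ± 5.13 FPKM in shLuci, and the flap endonuclease gene Fen1 measured 36.6 ± 0.775 FPKM in shTex10 and 61.0 ± 1.72 FPKM in shLuci. The gene that rose was Xrcc1, the scaffold on which the repair enzymes assemble, at 50.1 ± 2.38 FPKM in shTex10 and 29.4 ± 0.127 FPKM in shLuci (log2 change 0.75, SE 0.09). Apex1, whose product cuts DNA at the site TDG leaves behind, fell (log2 change -0.55, SE 0.08), as did the ligase gene Lig3 (-0.54, SE 0.09), while the polymerase gene Polb was not past the test (0.09, SE 0.11).

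Other DNA glycosylase genes were mixed. Ung, which removes uracil, fell to 27.9 ± 2.17 FPKM in shTex10, against 54.3 ± 4.17 FPKM in shLuci. Smug1 (log2 change -0.40), Neil1 (-0.41) and Neil3 (-0.72) also fell, whereas Neil2 (-0.14) and Mbd4 (-0.02), which like Tdg acts on mismatched thymine, were not past the test and changed sign under some settings. With shLuci replicate 1 left out, the calls of Neil1 and Smug1 ended (Benjamini-Hochberg adjusted p = 0.124 and 0.0626 from limma), and with shTex10 replicate 2 left out that of Smug1 did (0.0580). Both calls also ended with the same sum over named genes (0.158 for Neil1 and 0.129 for Smug1), and that of Neil1 with no filter (0.0567). Ung came closest to Tdg in level, and in shLuci its mean lay below that of Tdg by about the SD of Ung. Pcna, Fen1 and the ligase gene Lig1 also serve DNA replication, so the list is not specific to repair. No gene of the repair list was called by limma with the same sum over all rows (4 at an unadjusted p under 0.05), and 9 were called lower with the same sum over named genes.

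Partners and regulators of the TET enzymes had calls in both directions. Of 23 listed genes 22 were tested, of which 12 were lower, 3 higher and 7 not past the test. Pou5f1, Nanog, Sox2 and Sall4 are also among the listed ES cell genes, so the counts of these lists overlap. Over all genes tested, 31.8% were lower and 19.8% higher. The median log2 change was -0.35, beside -0.14 for all genes tested. The counts were 8 lower and 5 higher under quantile normalization, and 1 lower and 1 higher with the same sum over all rows. Prdm14, a regulator of naive pluripotency reported to recruit TET proteins in mouse ES cells, measured 3.92 ± 0.141 FPKM in shTex10 and 14.4 ± 0.300 FPKM in shLuci (log2 change -1.65, SE 0.09). Sin3a, a corepressor scaffold that binds TET1, measured 27.4 ± 0.234 FPKM in shTex10 and 42.4 ± 0.890 FPKM in shLuci, and Lin28a, an RNA-binding protein gene of ES cells, 77.7 ± 0.390 FPKM in shTex10 and 127 ± 6.43 FPKM in shLuci. Ogt, the O-GlcNAc transferase gene whose product binds TET proteins, fell by 0.26 (SE 0.08) on the log2 scale, but was not called once any single library was left out (limma, Benjamini-Hochberg adjusted p = 0.178 to 0.227) or when libraries were scaled in any of the 4 other ways tried. Pou5f1, the gene of Oct4, which binds the Tet1 and Tet2 genes in mouse ES cells, fell by 0.64 (SE 0.10), a call lost under quantile normalization (-0.26, adjusted p = 0.149 from limma). Sox2, its partner, was not past the test (-0.26, SE 0.10), and its change turned to 0.08 under quantile normalization.

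The 3 partner genes that rose were Gadd45g, Gadd45b and Cul4b. The Gadd45 proteins are stress-induced factors that have been linked to DNA demethylation, and Gadd45a is reported to bind TDG and TET1. Gadd45g measured 26.4 ± 2.78 FPKM in shTex10 and 8.49 ± 0.440 FPKM in shLuci (log2 change 1.53, SE 0.11). Gadd45b measured 24.2 ± 1.04 FPKM in shTex10 and 11.8 ± 1.46 FPKM in shLuci (log2 change 0.98, SE 0.11), and Gadd45a was not past the test (0.12, SE 0.08). The genes of the CRL4 ubiquitin ligase, reported to modify TET proteins, had mixed calls: Cul4b rose (0.72, SE 0.12), Vprbp fell (-0.47, SE 0.09), and Ddb1 (0.20) and Cul4a (-0.18, or 0.03 with the same sum over named genes) were not past the test. The CXXC protein gene Cxxc5 fell (-0.51, SE 0.11), and Cxxc4, known to bind Tet2 protein, was under the filter at 0.465 ± 0.0163 FPKM in shTex10 and 0.194 ± 0.0790 FPKM in shLuci. With the same sum over named genes Vprbp (-0.25, Benjamini-Hochberg adjusted p = 0.0533 from limma) and Cxxc5 (-0.29, 0.0966) lost their calls, and 6 genes of the list were lower and 5 higher, Gadd45a and Ddb1 among the 5.

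Genes that make or use the TET cosubstrates were mostly called lower under the reported setting, and the count depended on the scaling. Of 20 listed genes for alpha-ketoglutarate, succinate, fumarate and ascorbate metabolism 18 were tested. Of these, 13 were lower, 1 higher and 4 not past the test, where 31.8% of all genes tested were lower and 19.8% higher. Their median log2 change was -0.42, beside -0.14 for all genes tested. Psat1, an enzyme of serine synthesis that yields alpha-ketoglutarate, measured 50.3 ± 2.40 FPKM in shTex10 and 146 ± 3.73 FPKM in shLuci (log2 change -1.52, SE 0.09). The transaminase gene Got2 measured 82.4 ± 3.73 FPKM in shTex10 and 161 ± 4.09 FPKM in shLuci, and Idh2, the mitochondrial isocitrate dehydrogenase gene, 48.5 ± 2.90 FPKM in shTex10 and 86.9 ± 2.00 FPKM in shLuci. Sdha and Fh1, which consume succinate and fumarate, both inhibitors of TET enzymes, fell by 0.60 (SE 0.10) and 0.67 (SE 0.11) on the log2 scale. Glud1, the glutamate dehydrogenase gene, was the 1 that rose (0.33, SE 0.08), although its call ended once any single library was left out (limma, Benjamini-Hochberg adjusted p = 0.0685 to 0.133), and Idh1, the cytosolic isocitrate dehydrogenase gene, was not past the test (0.10). The counts were 8 lower and 3 higher under quantile normalization, and 6 lower and 3 higher with the same sum over named genes. With the same sum over all rows they were 1 lower and 0 higher. Metabolites were not measured.

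Other enzymes of the same class, which share the need for iron and 2-oxoglutarate, had a median close to that of all genes. Of 30 tested genes for histone demethylases, AlkB homologues and prolyl, asparaginyl or lysyl hydroxylases, 8 were lower, 4 higher and 18 not past the test. Over all genes tested, 31.8% were lower and 19.8% higher. Their median log2 change was -0.18 (-0.04 once the median of all genes was subtracted), and it was 0.04 with the same sum over named genes, where 3 were lower and 5 higher. With the same sum over all rows 1 was lower and 2 higher, and with a replicate block 17 were lower and 5 higher. Egln3, a prolyl hydroxylase gene of the hypoxia pathway, had the lowest log2 change of the list (-1.01, SE 0.09), at 0.851 ± 0.0411 FPKM in shTex10 and 2.73 ± 0.0106 FPKM in shLuci, and passed the filter only through shLuci. The only other listed gene with a log2 change below those of Tet1 and Tet2 was Plod1, a lysyl hydroxylase gene (-0.96, SE 0.12). The 5 genes with the smallest p held 3 that rose, Kdm4d (log2 change 1.58), P4ha2 (1.27) and Plod2 (0.97). Kdm4d, at 2.80 ± 0.268 FPKM in shTex10 and 0.269 ± 0.115 FPKM in shLuci, passed the filter only through shTex10.

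Genes that write, maintain or read DNA methylation, the substrate of the TET enzymes, had calls in both directions, as did all genes tested. Of 9 tested, 3 were lower, 3 higher and 3 not past the test, where 31.8% of all genes tested were lower and 19.8% higher. Their median log2 change was -0.18, beside -0.14 for all genes tested. The counts were 1 lower and 3 higher with the same sum over named genes, and 0 in either direction with the same sum over all rows (limma, with 1 at an unadjusted p under 0.05). Uhrf1, which brings the maintenance methyltransferase to replicating DNA, measured 55.5 ± 5.00 FPKM in shTex10 and 129 ± 19.2 FPKM in shLuci (log2 change -1.19, SE 0.13). Dnmt3b, a de novo methyltransferase gene, fell (-0.44, SE 0.08) but lost its call when the libraries were quantile normalized (Benjamini-Hochberg adjusted p = 0.0792 from limma) or given the same sum over named genes (0.0844). Dnmt3l, a cofactor gene of de novo methylation, rose to 424 ± 25.2 FPKM in shTex10, against 256 ± 15.5 FPKM in shLuci (0.73, SE 0.10), and the reader gene Mbd2 rose as well (0.69, SE 0.09).

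**Figure D4:**
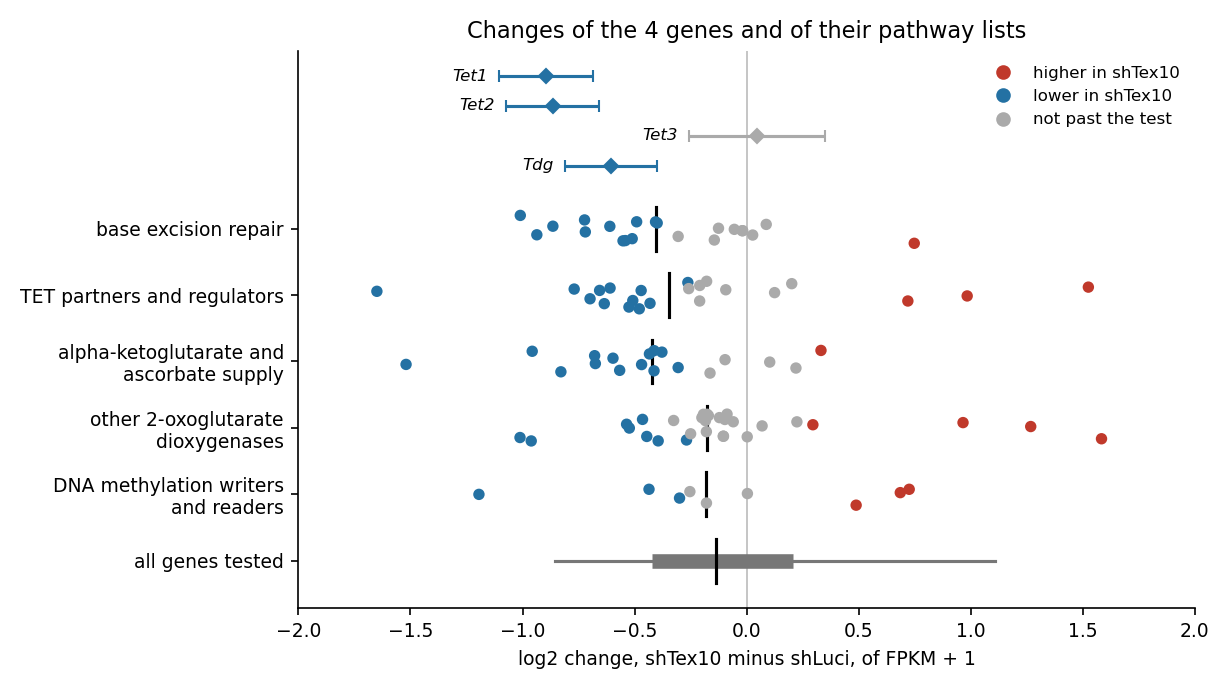
The log2 change of FPKM + 1, shTex10 minus shLuci (horizontal axis), for the 4 genes (diamonds, bars for the 95% interval), for the tested genes of 5 pathway lists (dots, 1 per gene, with vertical scatter for legibility) and for all genes tested (thick bar from the 25th to the 75th percentile, thin bar from the 5th to the 95th). Black lines mark medians, which lie at -0.41 for base excision repair, -0.18 for the other dioxygenases and -0.14 for all genes, and Tet1 and Tet2 lie close to the 5th percentile of all genes, -0.86.

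Genes of the 2-cell-like state, reported to rise in mouse ES cells that lack TET enzymes, were higher in the same libraries. All 8 tested of 11 listed were higher, where 19.8% of all genes tested were, by log2 changes between 1.82 (Dux) and 2.94 (Zscan4d). Reads cannot be divided cleanly among the closely similar Zscan4 copies, however. Among the listed genes not tested, Tcstv1 and Tcstv3 read 0 FPKM in every library and Gm4340 had no row of its own. This list, like the others, was chosen with earlier results of these data known. The summed level of the list was 570 and 613 FPKM in shTex10, against 77.5 and 86.9 FPKM in shLuci. Whether these genes moved because of the TET genes was not tested.

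The genes most like each member over the 4 libraries were named by the root mean square difference of centred log2(FPKM + 1). For Tet1 they were Usp6nl (0.00997), Urb2 (0.0120) and 1500012F01Rik (0.0127), and for Tet2 they were Exo1 (0.0107), an exonuclease gene of mismatch repair, Nono (0.0112) and Dpy30 (0.0137), a subunit gene of histone methyltransferase complexes. For Tdg they were Srrm1 (0.00543), a splicing cofactor gene, Wdfy1 (0.00738) and Fam63a (0.00744). For Tet3 they were Taz (0.0106), Maea (0.0110) and Nt5c3l (0.0134). With only 4 libraries such likeness is common: 407 genes lay within 0.1 of Tet1, 494 of Tet2, 1377 of Tdg and 1079 of Tet3.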

How the data were processed

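The deposited values are FPKM given by the authors, 1 table per library and no pooling of replicates, per the file headers. Build mm9, Cufflinks 2.1.1, Bowtie2 2.1.0 and TopHat2 2.0.10 appear in the submitters' processing notes. Options, annotation and strand use are not given there. RNA was poly(A)-selected and read as 100-base single ends, per the labels' protocols. Rows of 1 gene name were summed (22739 genes from 23311 named rows), and 7329 unnamed rows stayed out of the test. Genes with a mean of at least 1 FPKM (11883) entered limma 3.58.1 (R 4.3.3) as log2(FPKM + 1), with eBayes and its variance trend, without a replicate block, and p-values were adjusted by Benjamini-Hochberg over all genes, at a threshold of 0.05. Ratios between genes were compared with exact permutation tests in Python 3.11.15. FPKM keep no read counts, so no counting intervals are given, and depth was estimated only relative to 1 library, from 2918 locus lengths of unnamed rows; between 5.04% and 11.3% of lengths lay at the ratio used. Promoter windows come from RefSeq on GRCm38.p6 and transcripts from GENCODE M21, whose coordinates differ from those of mm9 and were not joined to them.

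The members and lists were chosen with earlier results of these data known. The named genes were Tex10, the 4 members, up to 5 genes of smallest p in each list, the 3 genes most like each member and rows that overlap a member; other genes named were chosen after their values were seen. Listed genes without a row of their own (Alkbh1, D2hgdh and Gm4340) are named only in rows that join several genes and were left out. Alternatives were 2 other pseudocounts, 2 other filters, 4 scalings, 2 other eBayes settings, a replicate block, the highest row per name and leaving out each library.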

Additional observations from a re-analysis of the deposited data

How the results depend on the processing

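For Tet1, Tet2 and Tdg, 15 of 16 alternatives kept the direction and the call, and for Tet3 none of 15 gave a call (a mean of at least 5 FPKM removed it). The same sum over all rows ended the calls of Tet1 (-0.89), Tet2 (-0.86) and Tdg (-0.60). The direction of these 3 could have turned only under the 4 scalings, and it stayed in each. The other filters, eBayes settings, block and highest row per name left the log2 changes of the members as they were. Other pseudocounts or leaving out a library cannot turn the sign of groups that lie apart. Tet3 turned to -0.11 under quantile normalization and ran from -0.0668 to 0.16 when single libraries were left out, while Tet1 ran from -0.92 to -0.87, Tet2 from -0.87 to -0.86 and Tdg from -0.62 to -0.59. A fit without 1 library assumes that the lone library of its group varies like the others. The cause of the changed calls was not tested. Over all genes, 2350 were higher and 3779 lower in shTex10 as reported. The counts were 1292 higher with a mean of at least 5 FPKM (fewer genes tested), 1906 lower with the same sum over named genes (62.9% of calls higher, in place of 38.3%), 655 higher and 237 lower with the same sum over all rows, and 5709 lower with a replicate block. Median scaling gave 44.8% of calls higher, quantile normalization 45.3% and no filter 46.0%. The labels do not say what a replicate number marks, and the differences between replicates 1 and 2 correlated at 0.331 across genes between the groups, so the numbers may hint at a pairing that the 2 pairs cannot establish; the block changed the call of none of the 4 genes. The ratios between genes and the Tet1 share kept their sign under all 8 alternatives run for them, many of which could not change it. The highest row per name and the replicate block left each difference as it was, and the pseudocount does not enter the share. Leaving out a library cannot turn the sign where the groups lie apart. Among the other named genes, small changes that missed the test turned sign: with the same sum over named genes Neil2 (0.0293), Mbd4 (0.187), Sall4 (0.0149) and Cul4a (0.0324), under quantile normalization Mbd4 (0.0158), Sall4 (0.00829) and Sox2 (0.0811), and under median scaling Mbd4 (0.0444). When single libraries were left out, Polb ran from -0.0241 to 0.199, Neil2 from -0.297 to 0.00875 and Mbd4 from -0.177 to 0.142. Of the called genes named, 39, the 3 members included, lost their call with the same sum over all rows. Read depth is unknown, which limits the precision of low genes such as Tet3, at about 2 FPKM.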
